A study of Homo sapiens with 18 samples.

Results

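The genes described here are the core of the human RNA interference machinery. They are 10 of the 26485 genes listed in the deposited tables, matched by gene symbol: the Argonautes AGO1, AGO2 and AGO3, the GW182 proteins TNRC6A, TNRC6B and TNRC6C, and the microRNA processing and export genes DICER1, DROSHA, DGCR8 and XPO5. All 10 were found in both tables and passed the filter on low values. The study asked how PKR, the double-stranded RNA-activated kinase encoded by EIF2AK2, affects pancreatic cancer cells. PANC-1 cells, an established epithelial line from a human pancreatic ductal carcinoma, received an siRNA or a drug, and poly(A) RNA was sequenced at 72 h in 18 libraries. In the first sequencing run 3 libraries came from cells with a control siRNA, 3 from cells with PKR siRNA 1 and 3 from cells with PKR siRNA 2. In the second run 3 libraries came from cells with DMSO (the solvent), 3 from cells with 400 nM of the PKR inhibitor C16 and 3 from cells with 800 nM. All cells of the first run, controls included, carried an siRNA, so these libraries do not compare cells with and without one. The sequencing run goes with the kind of treatment and the 2 cannot be told apart. The authors normalized the runs separately, so each table was compared only within itself.

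RNA interference uses short RNAs as guides. Drosha and its partner DGCR8 cut microRNA hairpins out of primary transcripts in the nucleus, exportin-5 (XPO5) carries the hairpins to the cytoplasm, and Dicer trims them to short duplexes. One strand is loaded into an Argonaute protein, which finds mRNAs mainly through guide bases 2 to 8, the seed, and GW182 proteins bridge Argonaute to the deadenylases and decapping factors that degrade the mRNA. A synthetic siRNA enters the same Argonautes, and among them AGO2 is the one best known for cutting a fully matched target. The pathway also meets PKR directly: TARBP2 and PRKRA (also called PACT), the double-stranded RNA-binding partners of Dicer, are known as an inhibitor and an activator of PKR.

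The target sites of both siRNAs lie in the coding sequence of EIF2AK2, on the minus strand of chromosome 2 (hg38, GENCODE release 44 canonical transcript with 17 exons). They are shown because the guides they define are what the Argonautes were given. The site of PKR siRNA 1 is in exon 8 at chr2:37138311-37138329. The site of PKR siRNA 2 crosses from exon 13 (chr2:37119959-37119967) into exon 14 (chr2:37114850-37114859). Capitals in the sites mark the 7 bases that pair with the guide seed, and capitals in the guides mark the seed. The guides are the complements of the 19-base sites.
PKR siRNA 1 site: gcagatacatcAGAGATAa
PKR siRNA 1 guide: uUAUCUCUgauguaucugc
PKR siRNA 2 site: gatcttaagccAAGTAATa
PKR siRNA 2 guide: uAUUACUUggcuuaagauc

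The 7-base seed matches were also sought in the 3′ UTRs of the 10 genes, on the transcript strand only. The match to PKR siRNA 1, AGAGATA, was in the 3′ UTR of 1 of the 10 (AGO2) and of 11.9% of the 9734 tested genes with a 3′ UTR of at least 50 bases. The match to PKR siRNA 2, AAGTAAT, was in 6 of the 10 (AGO1, AGO2, AGO3, TNRC6B, TNRC6C and XPO5), against 16.6% of those 9734 genes. Several of these UTRs are long, up to 16755 bases in AGO3 against a median of 1451 over all, and a long UTR holds more matches of any kind. Among the 2307 genes with at least 3000 bases of 3′ UTR the share with a match to PKR siRNA 2 was 40.6%, and 5 of the 6 RNA interference genes in that class held one. That class has no upper bound, and the 3′ UTRs of AGO1, AGO2, AGO3 and TNRC6B in it run from 10925 to 16755 bases. Its share is therefore not one among UTRs of like length and does not fully allow for length. DICER1 and TNRC6A, which differed most between the siRNA groups, had no 7-base 3′ UTR match to either seed. DICER1 held 1 match to PKR siRNA 2 in its coding sequence, in exon 8 of 27, and none to PKR siRNA 1 anywhere in its transcript. TNRC6A had no 7-base match to either in its transcript. The shorter 6-base matches were in the 3′ UTRs of 4 of the 10 for PKR siRNA 1, against 27.4% of the 9734 genes. For PKR siRNA 2 they were in 7 of the 10, against 34.1%. DICER1 held 1 such match to PKR siRNA 2 in its 3′ UTR and 4 in its transcript, and none to PKR siRNA 1. TNRC6A held 1 to each siRNA in its transcript, outside the 3′ UTR. Anywhere in the transcript, 7-base matches to PKR siRNA 1 and PKR siRNA 2 were found in 3 and 8 of the 10, against 21.2% and 21.7% of the 9734 genes. The transcripts of the 10 run from 4506 bases (DGCR8) to 19660 (AGO3). No share among transcripts of like length was taken, so these counts do not allow for length. The windows below show a match outside and inside the counted exons of 2 UTRs and the coding match of DICER1, with the match in capitals. A match is a string of letters and was not tested as a site.
XPO5, 3′ UTR base 166 of 1534, chr6:43523695-43523713, minus strand: tgcaggaccagAAGTAATt
AGO1, 3′ UTR base 6990 of 10925, chr1:35926586-35926604, plus strand: gcctgaatgggAAGTAATg
DICER1, coding, chr14:95124438-95124456, minus strand: tgtaactcctaAAGTAATc

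Reads on genes numbered 1512940 to 1873906 per library in the first run and 894145 to 1474308 in the second, so values of the second are less precise. The values are normalized counts, read counts divided by the authors' factor for each library. Among the 10 genes a library held from 32 (TNRC6C) to 470 (TNRC6A) reads in the siRNA table and from 17 (TNRC6C) to 266 (XPO5) in the C16 table. Of the epithelial markers, KRT8, KRT18 and KRT19 lay between 519 and 5105 normalized counts in every library, while KRT7 did not exceed 20.5 and CDH1 did not exceed 61.7. EPCAM ranged from 9.40 to 120.3. Of the leukocyte genes, PTPRC and CD3E were at 0 in all 18 libraries and LYZ lay between 0 and 4.82. The endothelial genes PECAM1, VWF and CDH5 did not exceed 1.07. Of the fibroblast genes, DCN was at 0 throughout, PDGFRB did not exceed 11.9, COL3A1 ranged from 1.11 to 30.5 and COL1A1 from 21.8 to 161. The summed epithelial markers were at 5358 to 5451 with the control siRNA, 3052 to 3279.8 under PKR siRNA 1 and 9586 to 10233 under PKR siRNA 2, and the summed fibroblast markers at 84.2 to 117, 26.3 to 32.2 and 130.3 to 139. With DMSO, 400 nM and 800 nM C16 the epithelial sums were 7171 to 7572, 6033 to 6544 and 5172 to 5685, and the fibroblast sums 149 to 184, 120 to 181 and 80.2 to 117. Apart from the fibroblast sums with DMSO and 400 nM, no groups of a table overlapped in either sum, and the part of these sums in the results was not tested. Not every epithelial marker followed the sum. EPCAM was at 83.2 to 120.3 with the control siRNA, 10.6 to 14.4 under PKR siRNA 1 and 9.40 to 11.9 under PKR siRNA 2. In the same order KRT7 was at 15.0 to 20.5, 9.65 to 14.4 and 1.99 to 6.58. The other epithelial markers were highest under PKR siRNA 2. With DMSO, 400 nM and 800 nM C16, EPCAM was at 16.2 to 19.8, 20.2 to 32.3 and 29.2 to 32.4. KRT8 and KRT19 were lower at each dose than with DMSO. EIF2AK2 was at 95.5, 93.5 and 103 with the control siRNA, at 10.00, 13.6 and 9.65 with PKR siRNA 1 and at 7.96, 8.58 and 9.40 with PKR siRNA 2, as the labels say. With DMSO it was at 45.7, 49.5 and 54.1, with 400 nM C16 at 45.7, 39.2 and 42.6 and with 800 nM C16 at 51.4, 48.7 and 49.6. Both doses overlapped with DMSO, while the 400 nM libraries lay below those of 800 nM (limma, log2 difference 0.23, adjusted p = 0.388). Genes with a mean of at least 10 were tested with limma on log2 (normalized count + 1), fitting the 9 libraries of a table together, with Benjamini-Hochberg adjustment. A gene was called when its adjusted p was under 0.05 and its fold over 1.5, and "rose" and "fell" are used only of called genes. A fold on this scale understates the change of low genes. The sources do not say whether replicates were separate cultures, so the tests measure the spread between libraries, which may be technical. In RNA from whole cultures, fewer cells expressing a gene and less RNA per cell cannot be told apart.

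Per exon length, XPO5 was the most abundant of the 10 RNAs and TNRC6C or TNRC6B the least in all 6 groups. With the control siRNA, XPO5 stood at 53.9 ± 2.82 normalized counts per kb (SD, n = 3), TNRC6A at 33.9 ± 0.74 and AGO2 at 30.6 ± 3.96. DGCR8, DROSHA, DICER1 and AGO1 lay together between 22.5 and 23.1 per kb, and neighbours in that order overlapped in their libraries. AGO3 followed at 15.4 ± 3.49 per kb, TNRC6B at 4.93 ± 0.29 and TNRC6C at 4.28 ± 0.35. XPO5 did not overlap with TNRC6A in any library, whereas TNRC6A and AGO2 did overlap. With DMSO, in the other table, the order began with XPO5 at 35.7 ± 2.21 per kb, TNRC6A at 19.9 ± 2.70 and DROSHA at 18.6 ± 0.62. DICER1 was eighth among the 10 there, at 7.74 ± 0.20 per kb, and TNRC6B and TNRC6C came last at 2.85 ± 0.49 and 2.18 ± 0.58.

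These levels, and the shares within families below, rest on the exons on which the authors counted reads. Rankings and shares between genes therefore depend on how much of each transcript those exons hold. For AGO1, AGO2 and AGO3 those exons cover 54.5%, 24.0% and 18.4% of the canonical GENCODE transcript, and 42.9%, 7.39% and 4.28% of its 3′ UTR. For the other 7 genes at least 93.9% of the transcript was covered. Any change confined to the distal 3′ UTRs of the 3 Argonautes would therefore not be seen, and the UTR matches of AGO1 and AGO3 lie beyond the counted exons. TNRC6C shares 440 of its 9780 exon bases with TNRC6C-AS1 on the opposite strand, and whether counting used strand is not given in the sources used here, so its value is uncertain to that extent. DGCR8 shares 85 and 88 exon bases with the microRNA genes MIR1306 and MIR3618, which lie inside its own exons, and 12 with TRMT2A on the opposite strand.

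**Figure D1:**
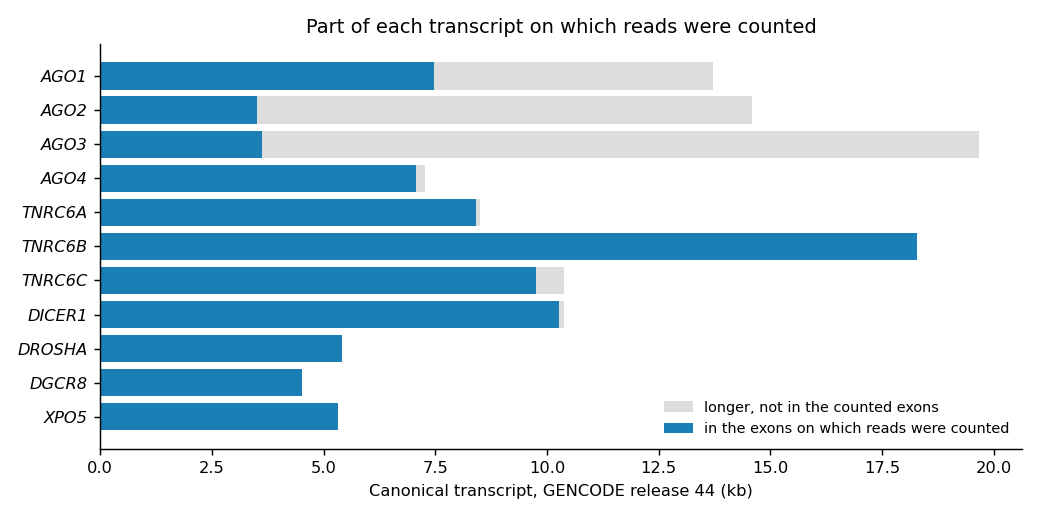
Length of the GENCODE release 44 canonical transcript of each gene in kb (whole bar) and the part that lies in the exons on which the authors counted reads (blue), with AGO4 added for comparison. AGO2 and AGO3 were counted on 24.0% and 18.4% of their transcripts, and AGO1 on 54.5%, while each other gene shown was counted on at least 93.9%.

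The siRNA libraries show whether the machinery differed between a control siRNA and siRNAs against PKR. With PKR siRNA 1, DICER1 fell and 0 of the 10 rose, so 1 of 10 was called against 21.1% of the 10593 genes tested. With PKR siRNA 2, DICER1 fell again and 0 rose, 1 of 10 against 23.5% of all genes. Between the siRNAs, TNRC6A was called, lower with PKR siRNA 2, 1 of 10 against 31.7%. None of these shares exceeded the background. At an adjusted p under 0.05 with any fold (limma), 6 of the 10 differed with PKR siRNA 1 (2 higher, 4 lower), against 45.0% of all genes, and 3 with PKR siRNA 2 (1 higher, 2 lower), against 47.3%. The median log2 fold change of the 10 was 0.09 with PKR siRNA 1 and -0.11 for the second siRNA, and over all tested genes it was -0.01 in each. The typical size of change, as the median absolute log2 fold change, was 0.30 for the 10 and 0.30 for all genes with PKR siRNA 1, and 0.15 against 0.31 with PKR siRNA 2. Both comparisons share the control libraries, so a gene high or low in the controls moves in both.

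**Figure D2:**
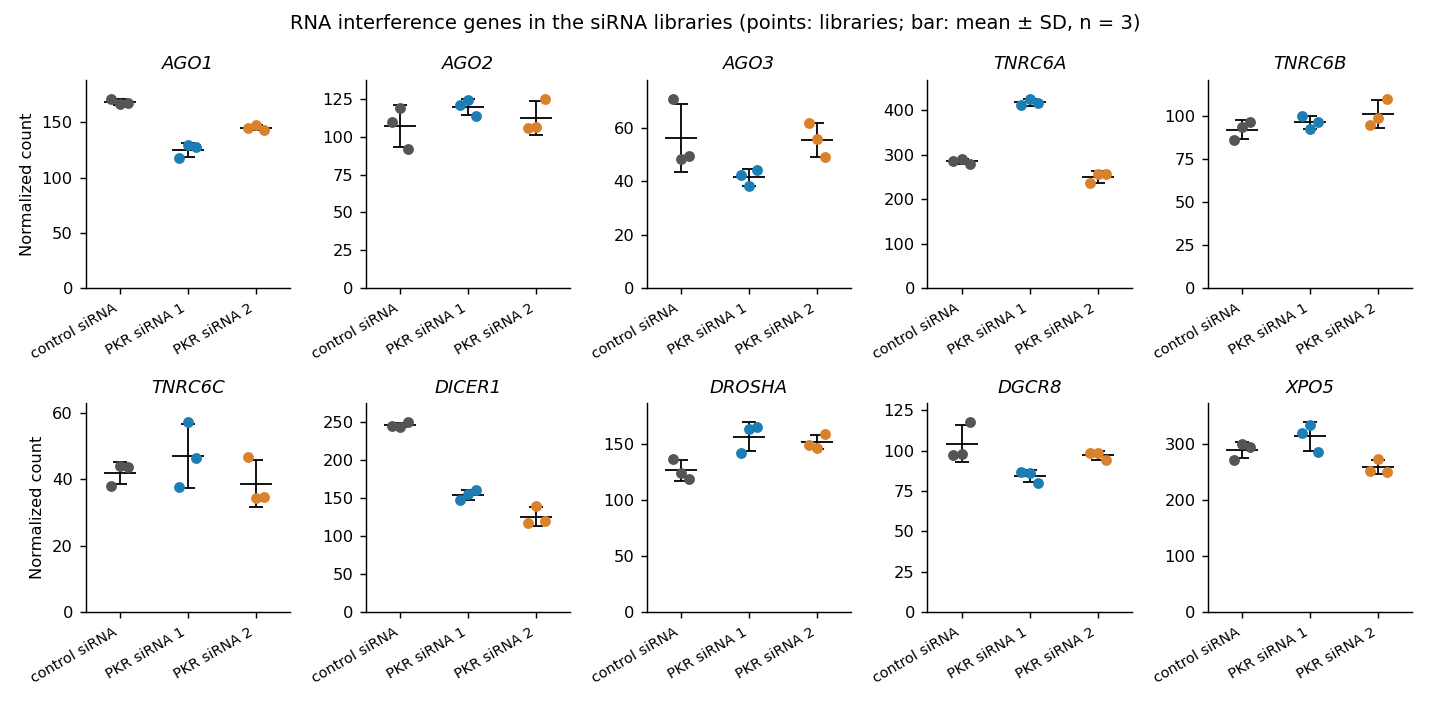
Normalized counts of the 10 genes in the 9 siRNA libraries, with each axis starting at 0. Points are libraries and bars the mean ± SD (n = 3). The DICER1 libraries of both PKR siRNAs lie below those of the control siRNA, and the TNRC6A libraries of PKR siRNA 1 lie above the other 6.

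DICER1, the enzyme that makes the final microRNA duplex, had the largest change of the 10 in the siRNA table. It stood at 244, 244 and 249 normalized counts with the control siRNA, at 147, 155 and 160 with PKR siRNA 1 and at 116, 139 and 119 with PKR siRNA 2. The 3 groups did not overlap, with the control libraries highest and those of PKR siRNA 2 lowest. It fell to 0.627-fold (95% interval 0.550 to 0.716) with PKR siRNA 1, a log2 fold change of -0.67 ± 0.10 (SE; limma, adjusted p = 9.74e-09). With PKR siRNA 2 it fell to 0.509-fold (0.446 to 0.581), a log2 fold change of -0.97 ± 0.10 (limma, adjusted p = 2.02e-14). The siRNAs themselves differed by -0.30 ± 0.10 on the log2 scale, lower with PKR siRNA 2 (limma, adjusted p = 0.00538, under 1.5-fold). In both comparisons with the control siRNA the call held without any 1 library, with log2 fold changes from -0.70 to -0.64 and from -1.05 to -0.92. MicroRNA levels were not measured in these libraries, so no value here bears on Dicer's products.

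The other processing genes moved less. DROSHA, the nuclear enzyme that starts the pathway, was at 137, 125 and 119 with the control siRNA, at 142, 163 and 165 with PKR siRNA 1 and at 149, 147 and 159 with PKR siRNA 2. All 6 libraries with a PKR siRNA lay above the controls. Its log2 difference from the controls was 0.31 ± 0.10 with PKR siRNA 1 (limma, adjusted p = 0.0105) and 0.26 ± 0.10 with PKR siRNA 2 (limma, adjusted p = 0.0293), neither over 1.5-fold. The first adjusted p reached at most 0.0602 without control replicate 3 or PKR siRNA 1 replicate 3. The second passed 0.05 without control replicate 2 or 3 or PKR siRNA 2 replicate 1 or 3, reaching at most 0.123. Per exon length, DICER1 and DROSHA were level in the controls, with a ratio of 1.00 ± 0.08 (SD, n = 3), and the ratio was 0.505 ± 0.02 with PKR siRNA 1 and 0.424 ± 0.05 with PKR siRNA 2. The highest library with a PKR siRNA was at 0.529 and the lowest control library at 0.918, so the ratios did not overlap.

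DGCR8, the RNA-binding partner of Drosha, stood at 97.6, 97.8 and 118 with the control siRNA, at 86.6, 86.2 and 80.1 with PKR siRNA 1 and at 98.5, 98.6 and 94.0 with PKR siRNA 2. The libraries of PKR siRNA 1 were the lowest 3 of the 9. Its log2 difference from the controls was -0.30 ± 0.12 with PKR siRNA 1 (limma, adjusted p = 0.0383) and -0.10 ± 0.12 with PKR siRNA 2 (limma, adjusted p = 0.536). The first adjusted p passed 0.05 without control replicate 3, where it was 0.224, and without any 1 library of PKR siRNA 1. XPO5, the exporter of microRNA precursors, was at 272, 301 and 295 with the control siRNA, at 319.9, 335 and 286 with PKR siRNA 1 and at 253, 272 and 249 with PKR siRNA 2. The control libraries overlapped with both other groups, which did not overlap with each other. XPO5 differed by -0.28 ± 0.08 on the log2 scale between the siRNAs, lower with PKR siRNA 2 (limma, adjusted p = 0.00191), and by 0.11 and -0.16 from the control (limma, adjusted p = 0.246 and 0.0802).

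Among the GW182 genes, which link Argonaute to mRNA decay, TNRC6A stood apart. It was at 285, 291 and 279 with the control siRNA, at 411, 426 and 417 with PKR siRNA 1 and at 236, 257 and 258 with PKR siRNA 2. No groups overlapped, and the controls lay between the siRNAs. With PKR siRNA 1 it was 1.46-fold the control (95% interval 1.32 to 1.62), a log2 fold change of 0.55 ± 0.07 (limma, adjusted p = 2.51e-09), just under the fold needed for a call. For PKR siRNA 2 the log2 fold change was -0.19 ± 0.07 (limma, adjusted p = 0.0319), and the adjusted p reached up to 0.155 without control replicate 1 or 2 or PKR siRNA 2 replicate 1. Between the siRNAs TNRC6A differed by -0.74 ± 0.07 on the log2 scale, 0.599-fold with PKR siRNA 2 against PKR siRNA 1 (limma, adjusted p = 4.02e-14). This call held without any 1 library, from -0.76 to -0.70.

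TNRC6B and TNRC6C, its paralogs, passed no threshold in the siRNA table. TNRC6B was at 86.3, 93.5 and 96.7 with the control siRNA, at 99.97, 92.5 and 96.5 with PKR siRNA 1 and at 94.5, 98.6 and 110.0 with PKR siRNA 2. The 3 groups overlapped, and the intervals of the log2 fold changes against the control were -0.18 to 0.30 and -0.11 to 0.37. TNRC6C ranged from 34.3 to 57.1 over the 9 libraries, with intervals of -0.22 to 0.52 and -0.49 to 0.24. Per exon length TNRC6A made up 78.6 ± 1.26% of the summed GW182 RNA with the control siRNA (SD, n = 3), 83.3 ± 0.85% with PKR siRNA 1 and 76.0 ± 1.87% with PKR siRNA 2. The sum itself was 43.1 ± 0.89 normalized counts per kb in the controls, 59.6 ± 1.71 in the libraries of PKR siRNA 1 and 39.1 ± 1.13 in those of PKR siRNA 2, and the groups did not overlap. Shares and sum depend on the counted exons, 8422 bases for TNRC6A and 18695 for TNRC6B. Undivided by length, their control means were 285 and 92.1 normalized counts.

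None of the Argonautes was called in the siRNA table. AGO1 was at 171, 167 and 168 with the control siRNA, at 118, 129.7 and 127 with PKR siRNA 1 and at 145, 148 and 143 with PKR siRNA 2. The 3 groups did not overlap, the control libraries being highest. Its log2 difference from the controls was -0.43 ± 0.10 with PKR siRNA 1 (limma, adjusted p = 0.00023), 0.742-fold with an interval of 0.646 to 0.852, and -0.21 ± 0.10 with PKR siRNA 2 (limma, adjusted p = 0.0722). The first kept an adjusted p under 0.05 without any 1 library, with 0.00292 the highest.

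AGO2, which can cut its target, was at 109.9, 119 and 92.0 with the control siRNA, at 121, 124 and 114 with PKR siRNA 1 and at 105, 106 and 125 with PKR siRNA 2. Both PKR siRNA groups overlapped with the controls. The log2 fold changes were 0.17 (95% interval -0.06 to 0.40) and 0.07 (-0.16 to 0.30), so a change of more than 1.5-fold lay outside both intervals. AGO3 was at 70.9, 48.3 and 49.3 with the control siRNA, at 42.2, 38.1 and 44.4 with PKR siRNA 1 and at 61.7, 55.8 and 48.9 with PKR siRNA 2. The first control library was the highest of the 9. The log2 fold change with PKR siRNA 1 was -0.41 ± 0.17 (limma, adjusted p = 0.0427), but it came to -0.23 (adjusted p = 0.347) without control replicate 1, and the adjusted p also passed 0.05 without PKR siRNA 1 replicate 1 or 2.

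AGO4, the remaining Argonaute, ranged from 22.9 to 42.1 over the siRNA libraries, and its groups overlapped. Per exon length AGO2 was the largest share of the 4 Argonaute RNAs, 41.5 ± 3.57% with the control siRNA (SD, n = 3), 51.0 ± 1.78% with PKR siRNA 1 and 45.0 ± 3.77% with PKR siRNA 2. The share of AGO1 was 30.8 ± 2.65%, 24.9 ± 0.94% and 27.3 ± 0.81% in the same order. For both genes the libraries of PKR siRNA 1 did not overlap with the controls. The ranking of the 2 depends on their counted exons, 3500 bases for AGO2 and 7478 for AGO1. Undivided by length, AGO1 had the higher mean in the controls, at 168.6 against 107.0 normalized counts. The summed Argonaute RNA per kb, from 66.4 to 79.7 in the controls, overlapped with that of both siRNAs. Of the Dicer partners, TARBP2 was at 83.2, 83.8 and 71.1 with the control siRNA, at 56.6, 68.9 and 62.7 with PKR siRNA 1 and at 57.7, 65.4 and 55.5 with PKR siRNA 2. All 6 libraries with a PKR siRNA were below the controls, with log2 fold changes of -0.33 ± 0.14 (limma, adjusted p = 0.052) and -0.41 ± 0.14 (limma, adjusted p = 0.0157), both under 1.5-fold. The second adjusted p passed 0.05 under some of the alternatives tried, reaching at most 0.0975. PRKRA ranged from 76.8 to 99.6 in the controls, from 93.3 to 95.5 in the libraries of PKR siRNA 1 and from 87.9 to 91.5 in those of PKR siRNA 2. Both siRNAs overlapped with the controls but not with each other, at a log2 difference of -0.07 (limma, adjusted p = 0.657).

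**Figure D3:**
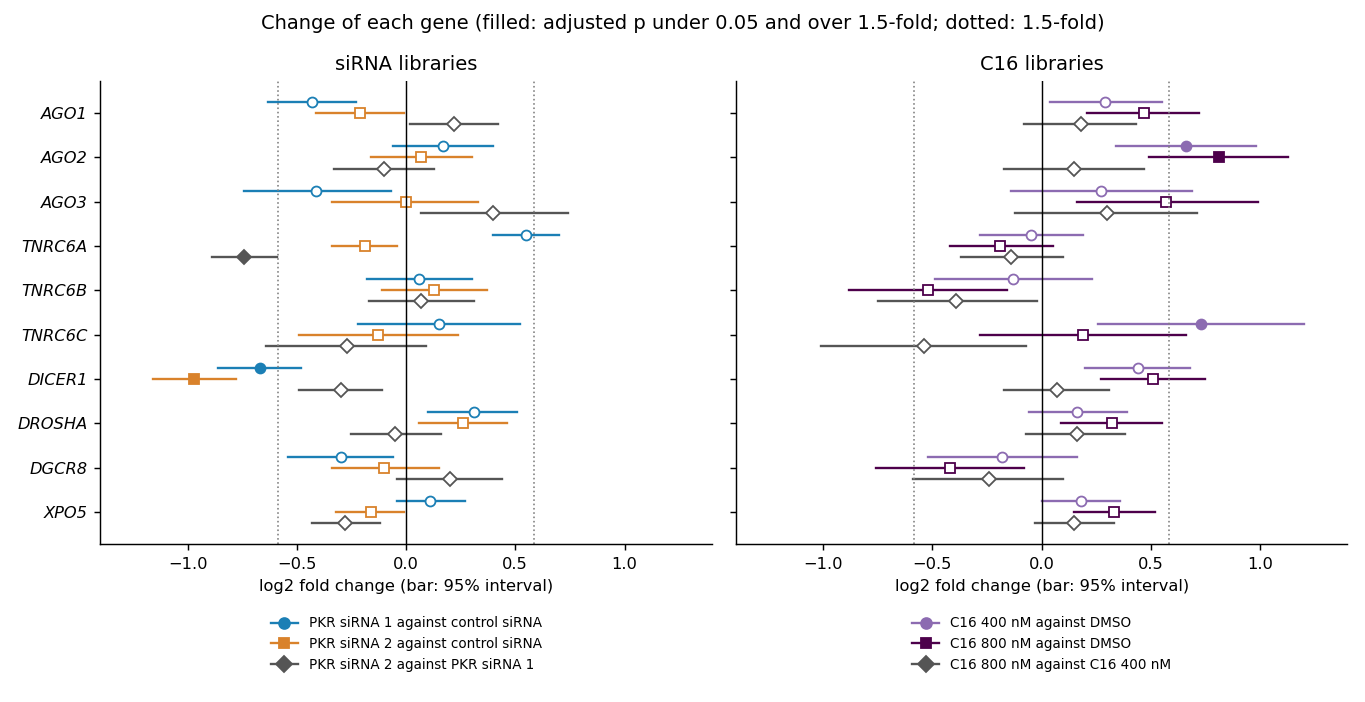
Log2 fold change of each of the 10 genes (limma, log2 of normalized count + 1) with its 95% interval, for the 3 siRNA comparisons (left) and the 3 C16 comparisons (right). Filled symbols are calls (adjusted p under 0.05 and over 1.5-fold, dotted lines). They are DICER1 with each PKR siRNA, TNRC6A between the siRNAs, AGO2 at both C16 doses and TNRC6C at 400 nM.

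Without regard to fold, the libraries of 6 of the 10 genes did not overlap between PKR siRNA 1 and the control siRNA, against 51.7% of all genes tested, and those of 4 did not with PKR siRNA 2, against 54.3%. Between the siRNAs they were 6 of 10 against 60.6%. For each such gene an exact two-sided permutation test gave p = 0.1, the smallest that 3 against 3 libraries can give. At an adjusted p under 0.05 with any fold, 4 of the 10 differed between the siRNAs, against 57.0% of all genes.

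C16 binds the kinase domain of PKR rather than removing its mRNA, and no siRNA is named for these cells. With 800 nM, AGO2 rose and 0 of the 10 fell, 1 of 10 against 25.7% of the 9963 genes tested. With 400 nM, AGO2 and TNRC6C rose and 0 fell, 2 of 10 against 12.5%. Between the doses 0 of the 10 were called (limma; 2 had an unadjusted p under 0.05), against 5.09% of all genes, and edgeR and DESeq2 also called 0. At an adjusted p under 0.05 with any fold, 8 of the 10 differed with 800 nM (6 higher, 2 lower), against 44.9% of all genes, and 3 with 400 nM (3 higher), against 26.5%. When each library was left out in turn, 4 of those 8 and 2 of those 3 kept an adjusted p under 0.05 every time. With DESeq2 the adjusted p went over 0.05 for AGO3, TNRC6B, DROSHA and DGCR8 at 800 nM. It did so for TNRC6C and DICER1 at 400 nM. The median log2 fold change of the 10 was 0.33 with 800 nM and 0.23 with 400 nM, and over all genes 0.00 in each. Both doses were compared with the same DMSO libraries.

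**Figure D4:**
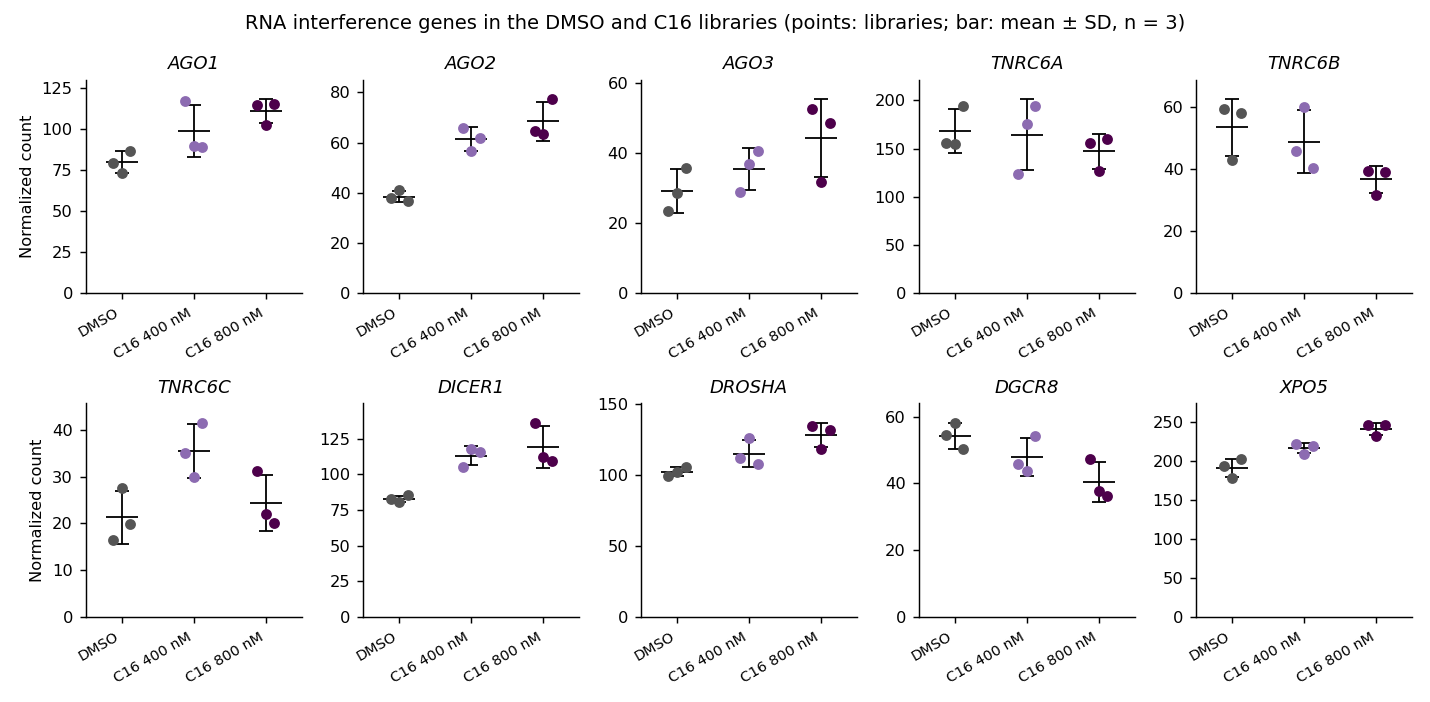
Normalized counts of the 10 genes in the 9 libraries with DMSO or C16, with each axis starting at 0. Points are libraries and bars the mean ± SD (n = 3). All 6 AGO2, DICER1, AGO1 and XPO5 libraries with C16 lie above those with DMSO.

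AGO2 had the largest change of the 10 in this table. It stood at 37.9, 41.0 and 36.5 normalized counts with DMSO, at 65.9, 56.5 and 61.7 with 400 nM C16 and at 64.6, 63.4 and 77.3 with 800 nM. Every C16 library was above every DMSO library, and the doses overlapped. It rose 1.58-fold (95% interval 1.27 to 1.97) with 400 nM, a log2 fold change of 0.66 ± 0.16 (limma, adjusted p = 0.00104). With 800 nM it rose 1.75-fold (1.41 to 2.18), a log2 fold change of 0.81 ± 0.16 (limma, adjusted p = 2.56e-05). The difference between the doses was 0.15, with an interval of -0.17 to 0.47 (limma, adjusted p = 0.581). Both calls held without any 1 library, from 0.61 to 0.72 and from 0.72 to 0.86.

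AGO1 was at 79.7, 73.3 and 86.8 with DMSO, at 117, 89.9 and 89.4 with 400 nM and at 115, 102 and 115 with 800 nM. All C16 libraries were above DMSO. The log2 fold change was 0.47 ± 0.13 with 800 nM (limma, adjusted p = 0.00192), 1.38-fold with an interval of 1.16 to 1.65, and 0.29 ± 0.13 with 400 nM (limma, adjusted p = 0.0799). AGO3 was at 23.3, 28.6 and 35.8 with DMSO, at 28.7, 36.9 and 40.4 with 400 nM and at 52.4, 31.7 and 48.7 with 800 nM. Its DMSO and 800 nM libraries overlapped, and its log2 fold change with 800 nM was 0.57 ± 0.21 (limma, adjusted p = 0.0212), 1.49-fold and so not called. AGO3 was the member nearest to a call: it was called at 0.72 without DMSO replicate 3, at 0.79 without 800 nM replicate 2 and at 0.60 by edgeR. Its adjusted p was 0.0772 with DESeq2, and it passed 0.05 without DMSO replicate 1 or 800 nM replicate 1 or 3, reaching at most 0.137.

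AGO4, a neighbour of AGO1 and AGO3 on chromosome 1 (chr1:35808227-35857889), moved the other way. It was at 34.0, 39.0 and 47.2 with DMSO, at 34.0, 23.1 and 25.5 with 400 nM and at 20.2, 25.6 and 21.0 with 800 nM. The 800 nM libraries did not overlap with DMSO, whereas those of 400 nM reached the lowest DMSO library. AGO4 fell to 0.568-fold (95% interval 0.419 to 0.769) with 800 nM (limma, adjusted p = 0.0017), a call that held without any 1 library. Its log2 fold change with 400 nM was -0.53 (limma, adjusted p = 0.0636), and it was called at -0.69 without 400 nM replicate 1. Per exon length, AGO4 made up 16.0 ± 1.31% of the 4 Argonaute RNAs with DMSO (SD, n = 3), 8.75 ± 1.28% with 400 nM and 6.44 ± 1.54% with 800 nM, and every C16 library was below every DMSO library. AGO2 made up 31.2 ± 3.61%, 39.5 ± 0.60% and 39.4 ± 2.84%, with all C16 libraries above DMSO. The share of AGO1 was between 29.7% and 30.3% in the 3 groups. The summed Argonaute RNA was 35.4 ± 2.96 normalized counts per kb with DMSO, 44.3 ± 2.81 with 400 nM and 49.7 ± 5.01 with 800 nM. Its DMSO libraries were the lowest 3 of the 9.

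**Figure D5:**
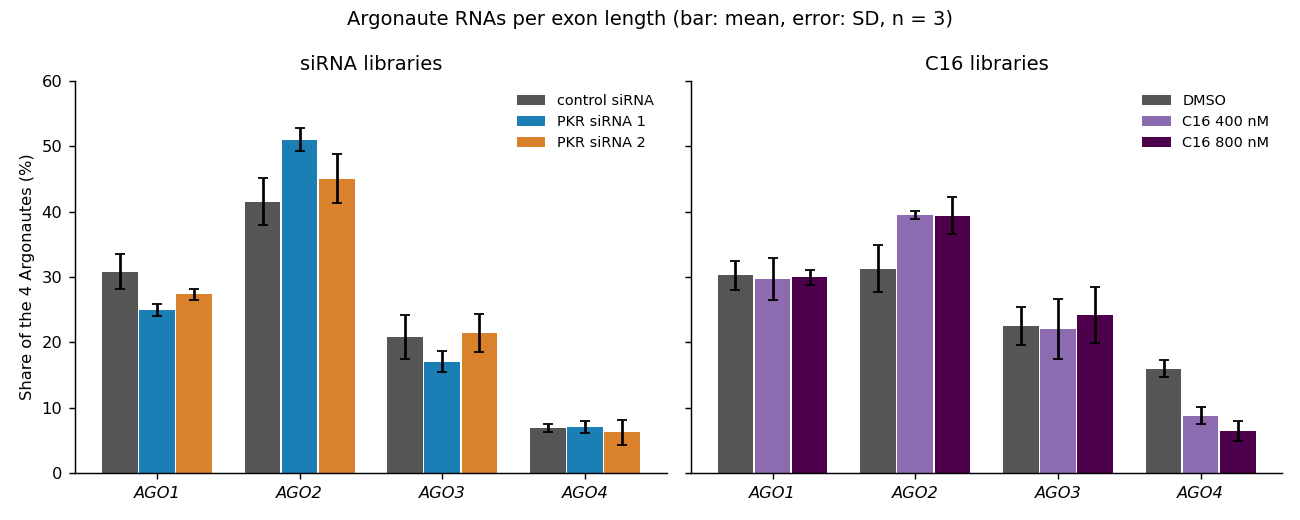
Share of AGO1, AGO2, AGO3 and AGO4 in their summed normalized counts per kb of counted exon, in percent, for the siRNA table (left) and the C16 table (right). Bars are means and error bars the SD (n = 3). AGO4 goes from 16.0% with DMSO to 8.75% and 6.44% with C16, and AGO2 from 31.2% to 39.5% and 39.4%.

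Of the GW182 genes, TNRC6C was at 16.5, 27.6 and 19.8 with DMSO, at 35.1, 29.98 and 41.5 with 400 nM and at 31.3, 21.9 and 20.04 with 800 nM. The 400 nM libraries were above DMSO and those of 800 nM overlapped with it. It rose 1.66-fold (95% interval 1.20 to 2.30) with 400 nM, a log2 fold change of 0.73 ± 0.23 (limma, adjusted p = 0.0153), and was 0.19 with 800 nM (limma, adjusted p = 0.525). The call at 400 nM rested on few reads: it was lost without DMSO replicate 1 (0.57, adjusted p = 0.105), without 400 nM replicate 3 (0.61, adjusted p = 0.095) and with DESeq2 (adjusted p = 0.0951). The difference between the doses was not called, at -0.54 with an interval of -1.01 to -0.07 (limma, adjusted p = 0.117).

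TNRC6B was at 59.3, 42.9 and 57.9 with DMSO, at 45.7, 59.96 and 40.4 with 400 nM and at 39.3, 31.7 and 39.1 with 800 nM. The 800 nM libraries were the lowest 3 of the 9. Its log2 fold change with 800 nM was -0.52 ± 0.18 (limma, adjusted p = 0.0159), not over 1.5-fold, while without DMSO replicate 2 it came to -0.67 and was called. The adjusted p passed 0.05 without DMSO replicate 1 or 3 or 800 nM replicate 2, reaching at most 0.0831. TNRC6A was at 155, 154 and 194 with DMSO, at 123, 175 and 195 with 400 nM and at 155, 127 and 160.3 with 800 nM. Its groups overlapped, with log2 intervals of -0.28 to 0.19 and -0.42 to 0.05. Per exon length TNRC6A was 79.7 ± 1.89% of the summed GW182 RNA with DMSO, 75.3 ± 3.96% with 400 nM and 79.7 ± 2.26% with 800 nM, and its libraries at both doses overlapped with DMSO.

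DICER1 was higher with C16. It stood at 82.6, 80.9 and 85.3 with DMSO, at 105, 118 and 116 with 400 nM and at 136, 112 and 109.7 with 800 nM. All 6 C16 libraries were above DMSO, and the doses overlapped. The log2 fold change was 0.44 ± 0.12 with 400 nM (limma, adjusted p = 0.00397) and 0.51 ± 0.12 with 800 nM (limma, adjusted p = 0.000355), 1.36-fold and 1.43-fold, so DICER1 was not called at either dose. Each kept an adjusted p under 0.05 without any 1 library, although the first was 0.053 with DESeq2. DROSHA was at 99.1, 102 and 106 with DMSO, at 112, 126 and 107 with 400 nM and at 134, 118 and 132 with 800 nM. Both doses lay above DMSO, with log2 fold changes of 0.16 (limma, adjusted p = 0.305) and 0.32 ± 0.11 (limma, adjusted p = 0.0192), and the latter adjusted p passed 0.05 without DMSO replicate 1 or 800 nM replicate 1 or 3, reaching at most 0.0741.

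The DICER1 to DROSHA ratio per exon length was 0.416 ± 0.01 with DMSO (SD, n = 3), 0.506 ± 0.04 with 400 nM and 0.478 ± 0.05 with 800 nM. The 400 nM libraries were above DMSO, and the lowest 800 nM library equalled the highest DMSO library at 0.428. DGCR8 was at 54.4, 58.1 and 50.3 with DMSO, at 45.7, 43.8 and 54.3 with 400 nM and at 47.4, 37.8 and 36.3 with 800 nM. The 800 nM libraries were below DMSO, with a log2 fold change of -0.42 ± 0.17 (limma, adjusted p = 0.0399) whose adjusted p passed 0.05 without DMSO replicate 1 or 2 or 800 nM replicate 2 or 3. XPO5 was at 193, 179 and 203 with DMSO, at 222, 209.9 and 219 with 400 nM and at 246, 233 and 246 with 800 nM. The 3 groups did not overlap, and their means were 192, 217 and 242. The log2 fold change of XPO5 was 0.18 ± 0.09 with 400 nM (limma, adjusted p = 0.136) and 0.33 ± 0.09 with 800 nM (limma, adjusted p = 0.00183), which held without any 1 library.

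The libraries of 7 of the 10 genes did not overlap between 800 nM C16 and DMSO, against 51.8% of all genes tested, and those of 6 did not at 400 nM, against 39.6%. Between the doses they were 2 of 10 (TNRC6B and XPO5), against 30.4%. Of the Dicer partners, PRKRA, the PKR activator, was at 57.3, 40.0 and 59.4 with DMSO, at 49.99, 57.7 and 51.1 with 400 nM and at 75.6, 82.9 and 79.2 with 800 nM. Only the 800 nM libraries stood above the rest of the table, and PRKRA rose 1.53-fold (95% interval 1.23 to 1.90) at that dose (limma, adjusted p = 0.00103). The rise was under 1.5-fold, and so not called, without DMSO replicate 2 (log2 0.43) or 800 nM replicate 2 (0.58) and with a pseudocount of 5 (0.57). TARBP2 was at 45.7, 48.6 and 60.2 with DMSO, at 42.5, 43.8 and 37.2 with 400 nM and at 35.3, 39.0 and 33.4 with 800 nM. All C16 libraries were below DMSO, with log2 fold changes of -0.31 (limma, adjusted p = 0.209) and -0.50 ± 0.18 (limma, adjusted p = 0.0192), the latter under 1.5-fold. Under the alternatives tried the latter adjusted p reached up to 0.132.

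The wider pathway was read from 78 genes in 7 lists, written from general knowledge: Argonaute regulators, Dicer partners, loading chaperones, Microprocessor cofactors, silencing effectors, microRNA turnover and microRNA host transcripts. Of these, 73 were listed, and the filter left 65 in the siRNA libraries and 63 in those with C16. With PKR siRNA 1, 3 rose and 5 fell, and with PKR siRNA 2 also 3 rose and 5 fell, against 8.53% and 12.6%, and 10.8% and 12.8%, of all genes tested. With 800 nM C16, 4 rose and 8 fell (11.6% and 14.1% of all genes), and with 400 nM 1 rose and 2 fell (7.08% and 5.45%). Between the siRNAs 6 were called higher and 3 lower with PKR siRNA 2 (16.4% and 15.3% of all genes), and between the doses 1 was called higher and 1 lower with 800 nM (1.13% and 3.95%). None of the 6 loading chaperones, which help Argonaute take up a duplex, was called in any of the 6 comparisons. Over all genes the share called ran from 5.09% between the doses to 31.7% between the siRNAs.

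Silencing effectors, the deadenylation and decapping factors downstream of GW182, were the largest list. Over the 6 comparisons, which share libraries, they gave 15 calls in 132 tests (11.4%), beside 7 in 60 (11.7%) for the Argonaute regulators. The microRNA host transcripts gave 9 in 24 (37.5%), and the remaining lists 0 to 11.1%. Only 5 host transcripts were tested in the siRNA libraries and 3 in those with C16. MIR4435-2HG alone was called in every comparison except PKR siRNA 1 against the control siRNA, so the 37.5% counts that transcript repeatedly. Over all genes the shares called were 21.1%, 23.5% and 31.7% with PKR siRNA 1, with PKR siRNA 2 and between them. They were 25.7%, 12.5% and 5.09% with 800 nM C16, with 400 nM and between the doses. DDX6, an RNA helicase that activates decapping, was at 595, 547 and 549 with the control siRNA and at 391, 309 and 363 with PKR siRNA 1. It fell by 0.67 on the log2 scale without overlap (limma, adjusted p = 9.97e-14), or by 0.58, just under the fold for a call, without PKR siRNA 1 replicate 2. With PKR siRNA 2 it was at 544, 556 and 548 and was not called. In the C16 table DDX6 was at 279.8, 249.5 and 246 with DMSO, at 166, 149 and 149 with 400 nM and at 127, 149.9 and 165 with 800 nM. It fell at both doses without overlap, with log2 fold changes of -0.74 and -0.81 (limma, adjusted p = 3.71e-08 and 1.11e-09). PAN2 and PAN3, the subunits of a deadenylase that GW182 recruits, were also lower with 800 nM C16: PAN3 stood at 28.2, 30.5 and 22.1 with DMSO and at 7.06, 7.31 and 8.59 with 800 nM, and PAN2 at 34.0, 50.5 and 53.3 and at 18.2, 18.3 and 15.3. Both fell, with log2 fold changes of -1.68 and -1.34 (limma, adjusted p = 8.48e-06 and 8.65e-07). They and LIN28B below were picked out after their values were seen.

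XRN1, the exonuclease that degrades decapped mRNA, was at 68.8, 60.2 and 55.9 with the control siRNA, at 41.1, 47.2 and 58.9 with PKR siRNA 1 and at 103, 125 and 126 with PKR siRNA 2. It rose by 0.93 on the log2 scale with PKR siRNA 2 (limma, adjusted p = 9.3e-08) and differed by 1.26 between the siRNAs (limma, adjusted p = 4.65e-12). DCP1A, a decapping cofactor, was at 51.3, 45.1 and 33.2 with the control siRNA, at 81.1, 60.8 and 78.2 with PKR siRNA 1 and at 43.8, 31.1 and 31.0 with PKR siRNA 2. It rose by 0.76 with PKR siRNA 1 (limma, adjusted p = 0.000254). LSM14A, a partner of DDX6, was at 455, 472 and 492 with the control siRNA and at 242, 253 and 261 with PKR siRNA 2, a log2 fold change of -0.90 (limma, adjusted p = 1.96e-17). It was at 347, 276 and 319 with PKR siRNA 1 and fell by 0.60 there too (limma, adjusted p = 3.79e-10), or by 0.57 and 0.51, under the fold for a call, without control replicate 3 and PKR siRNA 1 replicate 2.

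MOV10, an RNA helicase found with Argonaute, was at 87.3, 103 and 106 with the control siRNA, at 57.8, 90.7 and 81.1 with PKR siRNA 1 and at 162, 169 and 162 with PKR siRNA 2, and differed by 1.12 on the log2 scale between the siRNAs (limma, adjusted p = 1.23e-12). WTIP, of the family that includes the Argonaute-binding LIMD1, rose by 0.75 with PKR siRNA 2 (limma, adjusted p = 3.91e-09), from a mean of 118 to 199. LIMD1 was not called there, at a log2 fold change of 0.28. AJUBA, on the same list and named after its values were seen, fell by 0.68 (limma, adjusted p = 1.5e-07), from a mean of 176 to 110. PAPD4, a poly(A) polymerase that tails microRNAs, had a mean of 77.8 with the control siRNA and 45.3 with PKR siRNA 1, a log2 fold change of -0.76 (limma, adjusted p = 3.74e-05), and it rose by 0.71 with 800 nM C16 (limma, adjusted p = 0.000203). SRSF3, a splicing factor that helps the Microprocessor recognise hairpins, fell by 0.68 with 800 nM C16, from a mean of 423 to 262 (limma, adjusted p = 2.01e-10). LIN28B, which blocks let-7 processing, was at 44.2, 39.7 and 38.9 with the control siRNA, at 13.3, 19.05 and 14.5 with PKR siRNA 1 and at 22.9, 16.1 and 19.7 with PKR siRNA 2. Both PKR siRNA groups lay below the controls, with log2 fold changes of -1.35 and -1.04 (limma, adjusted p = 2.33e-06 and 0.000198), and it was not called with C16.

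Of 16 microRNA host transcripts, 11 were listed and 5 were tested in the siRNA table. MIR100HG was at 19.5, 15.0 and 19.9 with the control siRNA, at 36.7, 41.7 and 40.5 with PKR siRNA 1 and at 24.9, 20.4 and 15.0 with PKR siRNA 2. Only PKR siRNA 1 lay apart, and MIR100HG rose by 1.09 on the log2 scale (limma, adjusted p = 8.38e-05). MIR31HG was at 23.6, 23.6 and 31.3 with the control siRNA and at 15.6, 19.95 and 8.68 with PKR siRNA 1, and fell by 0.85 (limma, adjusted p = 0.00854), a call lost without control replicate 3 or PKR siRNA 1 replicate 3 and with DESeq2. MIRLET7BHG differed by 0.70 between the siRNAs, with means of 11.8 with PKR siRNA 1 and 19.8 with PKR siRNA 2 (limma, adjusted p = 0.0397), and this call was lost when any 1 library of either PKR siRNA was left out, other than PKR siRNA 1 replicate 2. These are the only host transcripts with a call other than MIR4435-2HG, which had a mean of 56.6 with the control siRNA and 17.7 with PKR siRNA 2, and of 20.8 with DMSO and 53.9 with 800 nM C16. Its log2 fold change with PKR siRNA 2 was -1.64 against the control and -1.68 against PKR siRNA 1, which itself gave no call. Against DMSO it was 1.32 with 800 nM and 0.68 with 400 nM, and between the doses 0.64. The calls at 400 nM and between the doses were lost under 2 and 7 of the 15 alternatives tried. These host transcripts were picked out after their values were seen, and a host transcript's level is not that of its microRNAs.

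Some of the mature microRNAs of these hosts are shown because they are what the 10 genes would process, with some inside DGCR8 and DICER1. MIR100HG and MIRLET7BHG alone hold 7 and 8, and the rest are not shown. Sequences are RefSeq entries for GRCh38.p14, with the seed in capitals. The let-7a and let-7b guides share the seed GAGGUAG and come from MIR100HG (let-7a) and MIRLET7BHG (both), and miR-3618 and miR-1306 lie in exons of DGCR8, whose hairpins Drosha can cut from the mRNA. The microRNA miR-3173 lies in an intron of DICER1. None of these mature microRNAs was measured in the poly(A) libraries.
hsa-let-7a-5p, chr11:122146568-122146589 and chr22:46112752-46112773: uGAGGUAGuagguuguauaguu
hsa-let-7b-5p, chr22:46113691-46113712: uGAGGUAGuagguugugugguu
hsa-miR-100-5p, chr11:122152275-122152296: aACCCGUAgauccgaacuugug
hsa-miR-31-5p, chr9:21512158-21512178: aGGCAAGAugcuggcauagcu
hsa-miR-3618, chr22:20085797-20085818: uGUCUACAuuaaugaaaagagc
hsa-miR-1306-5p, chr22:20086072-20086093: cCACCUCCccugcaaacgucca
hsa-miR-3173-5p, chr14:95137961-95137982: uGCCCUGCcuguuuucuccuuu

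The genes most like DICER1 and AGO2 were found by the root mean square difference of centred log2 values over the 9 libraries of a table, for genes averaging at least 50 normalized counts. For DICER1 in the siRNA table they were SMURF1 (0.075), SEC23IP (0.088) and MYOF (0.091), of 6773 genes compared. SMURF1 had a mean of 337 in the control libraries, of 229 in those of PKR siRNA 1 and of 175 in those of PKR siRNA 2. For AGO2 in the C16 table they were MAN2A1 (0.088), CEBPG (0.089) and ELOVL2 (0.096), of 5322 compared. MAN2A1 had means of 134 with DMSO, 193 with 400 nM and 230.0 with 800 nM. The 9 libraries share their run and normalization, and these likenesses are a description.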

How the data were processed

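Total RNA of PANC-1 cells was made into poly(A) libraries with a directional kit and sequenced as paired ends. The authors used TopHat to map reads to hg38, featureCounts to count them on genes and TCC (TMM) to normalize each run; versions, annotation and strand setting are not given in the sources used here. The deposited signal is each gene's normalized count, the reads over a library factor, with low values kept. Of the values, 100.0% in each library were whole multiples of 1 read (tolerance 0.01), so reads were recovered. In the first libraries of PKR siRNA 2 and 800 nM C16 the step is close to 1, at 0.994665 and 1.008652. Values there were still not whole numbers, with AGO1 at 145.221 and 114.986. Columns without a sample numbered 0.

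Groups and replicates came from the labels. The siRNA libraries held 1512940 to 1873906 reads (median 1739550) and the C16 libraries 894145 to 1474308 (median 1070960), which leaves genes with few reads imprecise. Replicates differed by more than sampling noise (chi-square per degree of freedom 1.03 to 1.47, p under 0.05 in 18 of 18 pairs), so none were merged. Log2 (normalized count + 1) was fitted with limma 3.58.1 in R 4.3.3 (lmFit, eBayes with a trend, two-sided) over the 9 libraries of a table, for genes averaging at least 10, with Benjamini-Hochberg adjustment over all genes tested. Calls needed an adjusted p under 0.05 and a fold over 1.5, the study's thresholds. Exact permutation tests were two-sided. The scripts were tested on simulated reads. The alternatives tried were pseudocounts of 5 and 0.5, a minimum mean of 30 or none, rescaling by the median of ratios, a fit of the groups compared alone, a replicate block, edgeR 4.0.16 and DESeq2 1.42.0 on recovered reads, each library left out, and 6-base seed matches.

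The 10 genes and the lists were chosen with earlier results of these data known. The named genes were the 10, EIF2AK2, AGO4, TARBP2 and PRKRA; from the lists, in each comparison, the 3 called genes with the largest change, a mean of at least 50 and groups that did not overlap; and the 3 genes most like the member that changed most in each table. Others are said to have been picked out later. Counted exons were compared with GENCODE release 44, whose exons held at least 99.24% of their bases.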

Additional observations from a re-analysis of the deposited data

Results flagged for a closer look

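The effects of the 2 PKR siRNAs differed for 4 of the 10 genes by the test of the difference itself (limma, PKR siRNA 2 against PKR siRNA 1), which is the same contrast as in the report, against 57.0% of all genes tested. TNRC6A differed by -0.74 on the log2 scale (adjusted p = 4.02e-14). DICER1 differed by -0.30 (adjusted p = 0.00538) and XPO5 by -0.28 (adjusted p = 0.00191). AGO3 differed by 0.40 (adjusted p = 0.0356), and its adjusted p passed 0.05 when replicate 1 or 2 of either siRNA was left out, reaching at most 0.151. That adjusted p also went over 0.05 with DESeq2 and without the filter on low values. The first 3 kept an adjusted p under 0.05 without any 1 library. The libraries of 6 of the 10 did not overlap between the siRNAs, these 4 among them, against 60.6% of all genes tested.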

How the results depend on the processing

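With PKR siRNA 1, with PKR siRNA 2, between the siRNAs and between the C16 doses, the number of the 10 genes called was the same under all 15 alternatives. With 800 nM C16 it was 2 in place of 1 with edgeR, which added AGO3, and 1 to 2 with a library left out. With 400 nM C16 it was 1 in place of 2 under a minimum mean of 30, where TNRC6C was not tested, and with DESeq2, and 1 to 2 with a library left out. Directions turned only for small changes that were not called. With PKR siRNA 2, AGO2 was at -0.03 without control replicate 3 and -0.01 without PKR siRNA 2 replicate 3 (-0.03 to 0.15 over libraries left out), and AGO3 at 0.01 with median-of-ratios rescaling, 0.17 without control replicate 1 and 0.08 without PKR siRNA 2 replicate 3 (-0.10 to 0.17). TNRC6A with 400 nM was at 0.06 without DMSO replicate 3 and 0.14 without 400 nM replicate 1 (-0.18 to 0.14), and DICER1 between the doses at -0.02 without 800 nM replicate 1 (-0.02 to 0.13). The cause was not tested. Same-numbered replicates did not deviate together (correlations from -0.03 to 0.03 and from -0.05 to 0.02, 0 of 9 pairs over 0.1 in each table), so the numbers do not pair the samples; with a replicate block, the members called were 1, 1 and 1 in the siRNA comparisons, 1 with 800 nM, 2 with 400 nM and 0 between the doses.

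Over all genes, counts moved by more than 1.5 times between the doses with DESeq2 (46 higher and 146 lower, against 113 and 394), and with a minimum mean of 30 for lower calls (231 between the doses; 800 with 800 nM against 1403; 296 with 400 nM against 543). The minimum mean of 30 left 7081 genes tested with C16 against 9963, so those counts are not out of the same number of genes. Depth limits the C16 table most, where TNRC6C, AGO3 and AGO4 rest on few reads.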
